A study of Mus musculus with 23 samples.

Results

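The protein genes of the large (60S) ribosomal subunit were followed gene by gene in synaptic RNA of mouse hippocampus. Members were the rows of the total RNA tables outside the long noncoding RNA tables whose symbol begins with Rpl followed by a number, with or without an a, or is Rplp0, Rplp1 or Rplp2. The rule found 46 genes among 22018 mRNA rows and 48709 rows in all. The 3 genes taken as markers of the set were all present: Rpl4 (ENSMUSG00000032399, chr9:64173375-64178666, plus strand), Rplp2 (ENSMUSG00000025508, chr7:141447370-141451585, plus strand) and Rpl22 (ENSMUSG00000028936, chr4:152325742-152334071, plus strand; GRCm38). Levels are given as CPM, here counts scaled to 1000000 mRNA-row counts per library, or as the percent of those counts.

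Synaptosomes are pinched-off nerve terminals. They came from hippocampi of unstimulated male C57B/6J mice of 3 month, pooled over many animals per sample (3 libraries of total RNA). The chamber libraries came from CD1 hippocampal neurons taken at E17 and grown to day 14 in microfluidic chambers whose perfusion channel, where neurites meet, was cut out; the study notes that the piece still held neurites, and chambers were pooled in pairs. The KCl chambers received 50 mM KCl for 2 h, which depolarises neurons (KCL1, KCL1a and KCL4), and the control chambers received no stimulation (8 libraries). Titles of 3 controls carried letters like those of the KCl samples (Ctrl3, Ctrl4, sc3) and those of the other 5 were bare numbers (C1, C2, C3, C9, C11).

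A ribosome's large subunit carries the peptidyl transferase centre, the tunnel through which the new chain leaves, and the P stalk that receives the elongation factors. Its protein genes are transcribed in every cell and their short mRNAs usually begin with a run of pyrimidines, the 5′ terminal oligopyrimidine tract, through which growth signals set their translation. They are also among the mRNAs found in axons and dendrites far from the cell body. Mammalian genomes hold many processed pseudogenes of them, so a short read can match several places.

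Total counts were 14714196 to 16667516 in synaptosomes, 2632490 to 80883504 in KCl chambers and 722529 to 48281227 in control chambers. mRNA rows took 11.0 to 12.1% of the synaptosome counts and 68.3 to 97.3% of the chamber counts. The control sc3 stood apart: it was the deepest control, its mRNA-row percent was the 97.3%, and 12 astrocyte genes took 1.72% of its counts, the highest of the 8 controls. Reads of olfactory, vomeronasal and taste receptor genes, which hippocampal neurites are not expected to hold, took 0.066 to 0.506% of KCl and 0.0066 to 1.30% of control counts. Strain, age, preparation and library kit all differ between synaptosomes and chambers and cannot be told apart. In bulk RNA, fewer neurites and less RNA per neurite cannot be told apart either.

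Coding stretches of 6 members are printed first, because the share of a coding sequence that is repeated elsewhere in the genome went with the levels in synaptosomes given further on. Capitals mark bases covered by a window of 50 bases that has an exact copy at another place of GRCm38, and lower case marks bases with none. The first 3 are members at high level in synaptosomes, each shown by a stretch picked from the uncopied part of its coding sequence, although 63.5% of the windows of Rplp1 were copied, and the last 3 had 3 counts or fewer there in all 3 libraries together.
Rpl4 (chr9:64174824-64174883, plus strand): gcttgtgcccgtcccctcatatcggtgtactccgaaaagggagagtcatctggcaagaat
Rplp1 (chr9:61914369-61914428, minus strand): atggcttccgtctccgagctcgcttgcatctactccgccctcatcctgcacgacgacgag
Rpl8 (chr15:76904313-76904372, plus strand): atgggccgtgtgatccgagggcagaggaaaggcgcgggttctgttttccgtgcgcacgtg
Rpl19 (chr11:98029395-98029454, plus strand): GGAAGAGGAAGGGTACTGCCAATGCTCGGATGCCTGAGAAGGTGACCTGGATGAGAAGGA
Rpl9 (chr5:65390778-65390837, minus strand): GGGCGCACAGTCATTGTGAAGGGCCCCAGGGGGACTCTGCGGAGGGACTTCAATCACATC
Rpl24 (chr16:55969564-55969623, plus strand): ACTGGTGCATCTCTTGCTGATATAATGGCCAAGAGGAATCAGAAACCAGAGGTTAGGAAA
All are coding exons on the strand of the gene. Each window of the Rpl19 stretch had at least 4 other exact matches, of the Rpl9 stretch 8 and of the Rpl24 stretch 3.

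Windows around the start sites carried a pyrimidine run in some members and not in others, counted whether or not it lay at the start itself. In a window of 15 bases either side of the annotated start (RefSeq, GRCm38.p6), a run of at least 8 bases that are all C or T on the gene's strand stood in 18 of the 40 windows of large subunit genes (45%), against 34.5% of the 29 windows of small subunit genes and 12% of all 32851 start windows. The promoter table held 34 of the 46 genes. The 3 markers, the member with the longest run and Rpl24 are shown, with the longest run of C or T in capitals and the annotated start at the 16th base.
Rpl4 (chr9:64173372-64173401): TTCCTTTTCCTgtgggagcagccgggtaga
Rplp2 (chr7:141447636-141447665): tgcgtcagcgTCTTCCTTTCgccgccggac
Rpl22, upstream start (chr4:152324421-152324450): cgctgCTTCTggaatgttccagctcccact
Rpl22, downstream start (chr4:152325711-152325740): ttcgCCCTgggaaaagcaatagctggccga
Rpl7a (chr2:26910792-26910821): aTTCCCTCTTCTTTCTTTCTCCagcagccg
Rpl24 (chr16:55966260-55966289): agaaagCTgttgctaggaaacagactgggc
The run was 21 bases in Rpl7a, 11 in Rpl4, 10 in Rplp2, 5 and 4 at the starts of Rpl22 and 2 in Rpl24, so that Rpl22 and Rpl24 had none of at least 8 bases. The runs of Rpl7a and Rplp2 crossed the annotated start, and that of Rpl4 ended before it. A match describes these letters and says nothing of a factor bound there.

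Together the 46 genes took on average the largest share of mRNA-row counts in KCl chambers and the smallest in synaptosomes. The sum was 0.144, 0.171 and 0.165% in the synaptosome libraries (mean 0.160 ± 0.014%, SD, n = 3). It was 0.533% in KCL1, 0.748% in KCL1a and 0.499% in KCL4 (mean 0.593 ± 0.135%, SD, n = 3). In controls it ran from 0.127% in Ctrl4 over a median of 0.336% to 0.415% in C1 (mean 0.306 ± 0.104%, SD, n = 8). Every KCl library was above every control, both above the lettered controls (highest 0.3895% in sc3) and above the bare-number controls. This held for shares of mRNA-row counts only. As a share of all rows, KCL4 (0.3729%) lay below sc3 (0.3789%). The 32 small subunit genes summed to 0.366 to 0.614% in KCl chambers, against 0.0756 to 0.292% in controls. As a share of all rows, their sums in KCL1 (0.2744%) and KCL4 (0.2817%) lay below that in sc3 (0.284%). The plot of summed shares shows both families by library. Since the members were chosen with earlier results known, no test was made of this sum. Ctrl4, with the lowest sum, had the highest share of sensory receptor reads (1.30%) and of gene models on satellite repeats (8.86%), and sc3 had the lowest of both (0.0066 and 0.018%). KCL1a went the other way, with the highest sum of all libraries beside 0.506% sensory receptor and 5.78% satellite reads, more than C1, C2 and C11 had of either. The part of these reads in the sums was not tested.

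**Figure D1:**
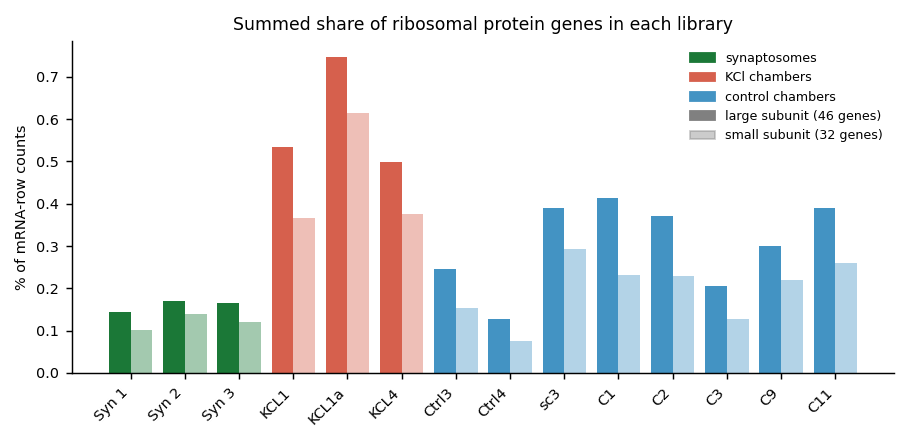
Summed share of mRNA-row counts (%, bars from 0) of the 46 large subunit genes (full colour) and 32 small subunit genes (pale) in each library. The large subunit share was 0.144 to 0.171% in synaptosomes, 0.499 to 0.748% in KCl chambers and 0.127 to 0.415% in control chambers.

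In synaptosomes the members were very uneven. Per kilobase of exon, Rplp1 stood at 667 CPM, Rpl4 at 159 and Rpl8 at 124, against 0.176 for Rpl19, whose protein belongs to the same subunit. The 5 leading members took 58.7 to 63.0% of all member counts in the synaptosome libraries, against 22.8 to 34.2% in the chamber libraries. Of the 46 genes, 33 had at least 10 counts over the 3 synaptosome libraries together, 12 had 1 to 9 and Rpl24 had none. One count is worth 0.541 to 0.562 CPM there, so single values of these 13 genes rest on almost no reads. The 12 astrocyte genes took 2.13 to 2.69% of mRNA-row counts in synaptosomes and 0.117 to 1.77% in controls. For 10 microglia genes the ranges were 0.198 to 0.272% in synaptosomes and 0.00269 to 0.0373% in controls, and for 10 oligodendrocyte genes 0.191 to 0.288% in synaptosomes and 0.0286 to 0.209% in controls. The part of these cells in the differences was not tested.

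Rplp1, the stalk protein that pairs with Rplp2 and contacts elongation factors, led. It had 282, 349 and 368 CPM in synaptosomes, against 5.74 at the lowest, 146 at the median and 216 at the highest in controls. Rpl8, which lies beside the peptidyl transferase centre, had 160, 187 and 158 CPM in synaptosomes, against 8.44, 103 and 153 in controls. Rpl34 had 51.7, 52.3 and 60.01 CPM in synaptosomes, against 0, 24.25 and 49.8 in controls. In these 3 genes every synaptosome library was above every control, and the log2 ratios of mean shares, with 1 CPM added to both, were 1.40, 0.79 and 1.09. That is 3 of 46 members (6.52%), beside 2.56% of the 21378 mRNA rows with a count. The separation rests on shares of mRNA-row counts: taken over all rows, none of the 3 genes was above every control.

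The markers took other positions. Rpl4, whose long loop lines the exit tunnel, had 280, 299 and 377 CPM in synaptosomes, against 52.3, 154 and 312 in controls (log2 ratio 0.88). Its ranges overlapped. Rpl22, an RNA-binding protein at the subunit's outer face, had 56.8, 65.9 and 49.7 CPM in synaptosomes, against 29.9, 82.75 and 145 in controls (log2 ratio -0.45). Rplp2 had 30.9, 38.15 and 15.1 CPM in synaptosomes, against 37.1, 121.5 and 261 in controls (log2 ratio -2.27). Its highest synaptosome value passed only the lowest control.

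The stalk genes differed widely in their ratios. Rplp0, which anchors the P1 and P2 pairs, had 74.2, 101.4 and 76.8 CPM in synaptosomes, against 33.7, 99.2 and 195.6 in controls. Rpl12, at the stalk base, had 0.562, 0.545 and 1.62 CPM in synaptosomes, 5 counts in all, against 23.6, 54.9 and 120.9 in controls. The log2 ratios of the 4 genes were 1.40 for Rplp1, -0.25 for Rplp0, -2.27 for Rplp2 and -4.97 for Rpl12.

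Every synaptosome library was below every control in 21 of the 46 members (45.7%), beside 16.4% of the 21378 mRNA rows with a count and 23.3% of the 13894 with a mean of at least 10 CPM over all libraries, where 45 members stood. Above all controls, that second set of rows had 3.61%. All 12 members with 1 to 9 synaptosome counts were among the 21. Of the 21, only Rpl7 had fewer than 80% of its coding windows copied elsewhere in the genome. Rpl12, Rpl21, Rpl28 and Rpl31 had all windows copied. Among members with at least 10 synaptosome counts, Rpl21, Rpl28 and Rpl31 had the lowest ratios. Rpl21 had 2.81, 4.905 and 2.70 CPM in synaptosomes, against 45.55, 111.9 and 169.7 in controls (log2 ratio -4.67). Rpl28 had 2.25, 3.27 and 3.24 CPM in synaptosomes, against 20.51, 47.4 and 85.5 in controls (log2 ratio -3.70). Rpl31, at the tunnel rim, had 6.18, 3.815 and 5.95 CPM in synaptosomes, against 20.25, 46.6 and 132 in controls (log2 ratio -3.30). None of these 3 overlapped.

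Rpl24, which forms a bridge to the small subunit, had 0 counts in 5464112 mRNA-row counts of synaptosomes, which allows up to 0.549 CPM. It was low in chambers too, with 0, 7.23 and 0.364 CPM in KCl chambers and 0, 1.879 and 10.2 in controls. The synaptosome bound lay 5.75-fold below the control mean, which Ctrl3 (10.2 CPM) and sc3 (6.15 CPM) raised. The controls C2 and C9 had 0 counts as well. All of its 425 coding windows were copied, so the bound is one on counted reads and not on its RNA. Counting intervals and floors cover counting error only. Over all 46 genes the median log2 ratio was -1.98 (-2.08 with Rpl24 at its bound), beside -1.80 over the 21378 mRNA rows, and 8 members had a higher mean share in synaptosomes than in controls. At the cutoff the study used, 50 CPM taken over all rows, no member passed in synaptosomes, where Rplp1 was highest at 38.0. At its cutoff of 100 for chambers, 17 members passed in KCl chambers and 2 in controls, Rpl4 (135.8) and Rplp2 (105.7). These counts cannot be compared between synaptosomes and chambers. mRNA rows took 11.0 to 12.1% of synaptosome counts and 68.3 to 97.3% of chamber counts, so the cutoffs differ in what they ask of an mRNA. The share of all rows that passed was not counted here. The plot of each gene by library shows the members in the order of their synaptosome ratio.

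**Figure D2:**
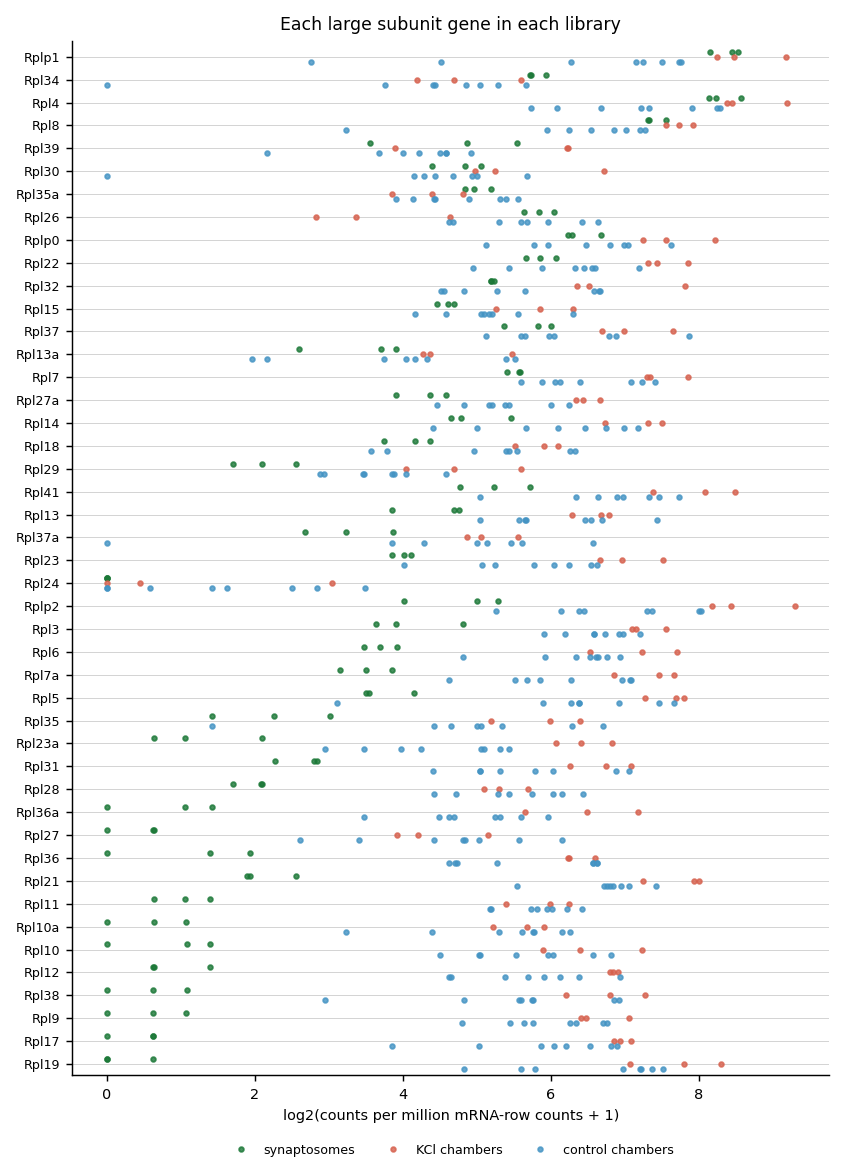
Levels of 45 of the 46 genes (rows, from the highest to the lowest synaptosome over control ratio) in each library, as log2 of CPM over mRNA rows plus 1. Synaptosome points lie to the right of the control points for Rplp1 (282 to 368 CPM) and near 0 for the bottom rows such as Rpl19 (0, 0 and 0.541 CPM).

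The order of the synaptosome ratios went with sequence repeated in the genome. For each member the coding sequence of its principal transcript (GENCODE M21) was read in every window of 50 bases, and a window was counted as copied when the same 50 bases stood elsewhere in GRCm38 on either strand. All windows were copied in 19 members, from 80 to under 100% in 16 and fewer in 11. The median log2 ratio of synaptosomes over controls was -4.15 in the 19, -1.87 in the 16 and -0.45 in the 11. Spearman's rho between percent copied and that ratio was -0.754 across the 46 genes, and between percent copied and the KCl over control ratio it was -0.258. Among the 11 least copied members, Rpl7 alone had every synaptosome library below every control, and Rplp1, Rpl8 and Rpl34 had every one above. All these values are descriptions across genes of the same libraries, and the classes were drawn after the values were seen.

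Single members show the span. Rplp1, the member of highest level in synaptosomes, had 63.5% of its 296 windows copied. Rpl8 had 8.83% of its 725 windows copied, Rpl4 20.2% of 1211 and Rpl22 30.8% of 338, each with a synaptosome over control log2 ratio of -0.45 or higher. Rpl19 and Rpl9, with all of 542 and 530 windows copied at 13 and 14 other places, had log2 ratios of -6.58 and -5.47 on 1 and 3 synaptosome counts. Rpl41, which codes for the shortest of these proteins, and Rpl15 ran the other way, with all of 29 and 566 windows copied and log2 ratios of -1.68 and -0.68. The windows cover coding sequence only and leave out untranslated exon sequence. Coding sequence was 78 bases beside 1168 exon bases in Rpl41, and 615 beside 2473 in Rpl15. Rows named as pseudogenes of the members, 170 in the tables, held 0.665 to 1.28 counts for every 100 member counts in synaptosomes and 1.34 to 57.8 in chambers. Of these rows 13 had a count in synaptosomes, 145 in KCl chambers and 168 in controls. The study gives its depths as unique reads, but how reads that match several places were counted is not given in the sources used here, and its part in the profile was not tested. Levels of members with copied sequence are uncertain for this reason.

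**Figure D3:**
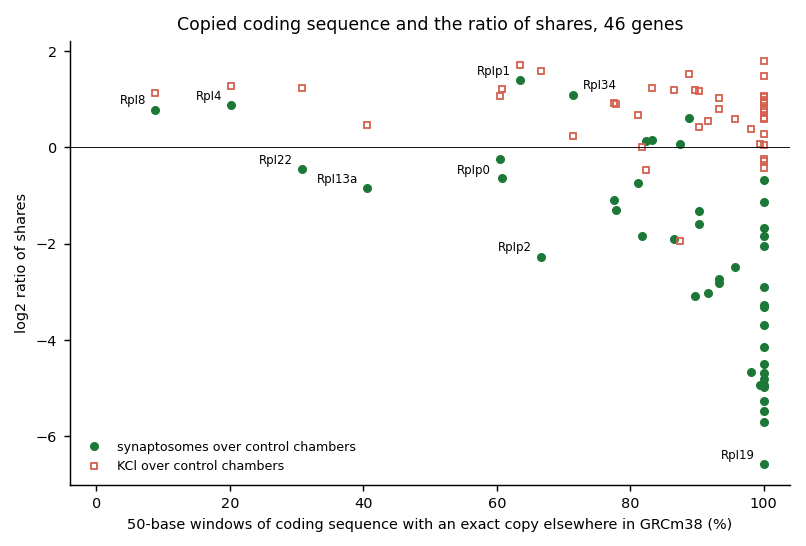
Percent of windows of 50 coding bases with an exact copy elsewhere in the genome (x axis) against the log2 ratio of shares (y axis) for the 46 genes, synaptosomes over control chambers as filled circles and KCl over control chambers as open squares. Circles lie lower toward the right (rho -0.754), with Rpl8 at 8.83% and 0.79 and Rpl19 at 100% and -6.58, and squares show little slope (rho -0.258).

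KCl chambers set against control chambers ask which mRNAs change in the neurites after depolarisation. The mean share was higher in KCl chambers for 41 of 46 members, and in 8 of them (17.4%) every KCl library was above every control, beside 0.598% of the 21388 mRNA rows with a count and 0.907% of the 13893 with a mean of at least 10 CPM. The 8 were Rplp2, Rpl22, Rpl23a, Rplp1, Rpl8, Rpl27a, Rpl23 and Rpl4. No member had every KCl library below every control, beside 0.884 and 1.19% of the same rows. The order of the members was much alike in the 2 chamber groups (rho 0.919 between mean levels, across 46 genes).

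No member was called by edgeR's quasi-likelihood test (adjusted p at most 0.05 over 28232 rows and a log2 fold change beyond 1), where 0.00354% of rows were called higher and 0% lower. At an unadjusted p under 0.05, 7 members were higher and 0 lower, beside 3.34 and 2.81% of all rows. The median log2 fold change of the members was 0.87 and that of all rows -0.53. The fold change was above 0 in 37 of 46 members, beside 35.6% of all rows. This fit, and that of DESeq2, held a term for lettered or bare-number titles, and all KCl titles are lettered. Their fold changes thus set KCl chambers against the 3 lettered controls. The 5 bare-number controls entered only the filter, scaling and spread. Without the term, edgeR's log2 fold changes of Rplp2, Rpl22 and Rpl4 were 1.81, 1.62 and 1.35, against 2.74, 2.195 and 1.43 with it. DESeq2 called 2 members higher, Rplp2 (adjusted p = 0.00135) and Rpl22 (adjusted p = 0.0117), beside 1.44% of all rows, and gave no adjusted p for 30 members.

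One control library decided the edgeR call. Without sc3, 23 of 45 members tested were called higher and 0 lower, beside 3.61 and 0.303% of all rows, with log2 fold changes from 2.33 for Rpl22 to 5.78 for Rplp1. With the title term these fold changes set KCl against Ctrl3 and Ctrl4, where Rplp1 had 9 and 13 counts (5.74 and 21.9 CPM). In the bare-number controls Rplp1 had 76.5 to 216 CPM. Ctrl3 and Ctrl4 also had the highest shares of sensory receptor reads among controls (1.07 and 1.30%). The calls held only with the term for lettered titles in the fit: without that term, leaving out sc3 left 0 members called. Without KCL4 as well as sc3, 16 members were called higher, beside 1.25% of all rows. That alternative was chosen after seeing the data. The plot of fold changes shows the fits with and without sc3. The astrocyte share of sc3 (1.72%, against 0.447% at most in the other controls) is given above, and its part in the call was not tested.

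**Figure D4:**
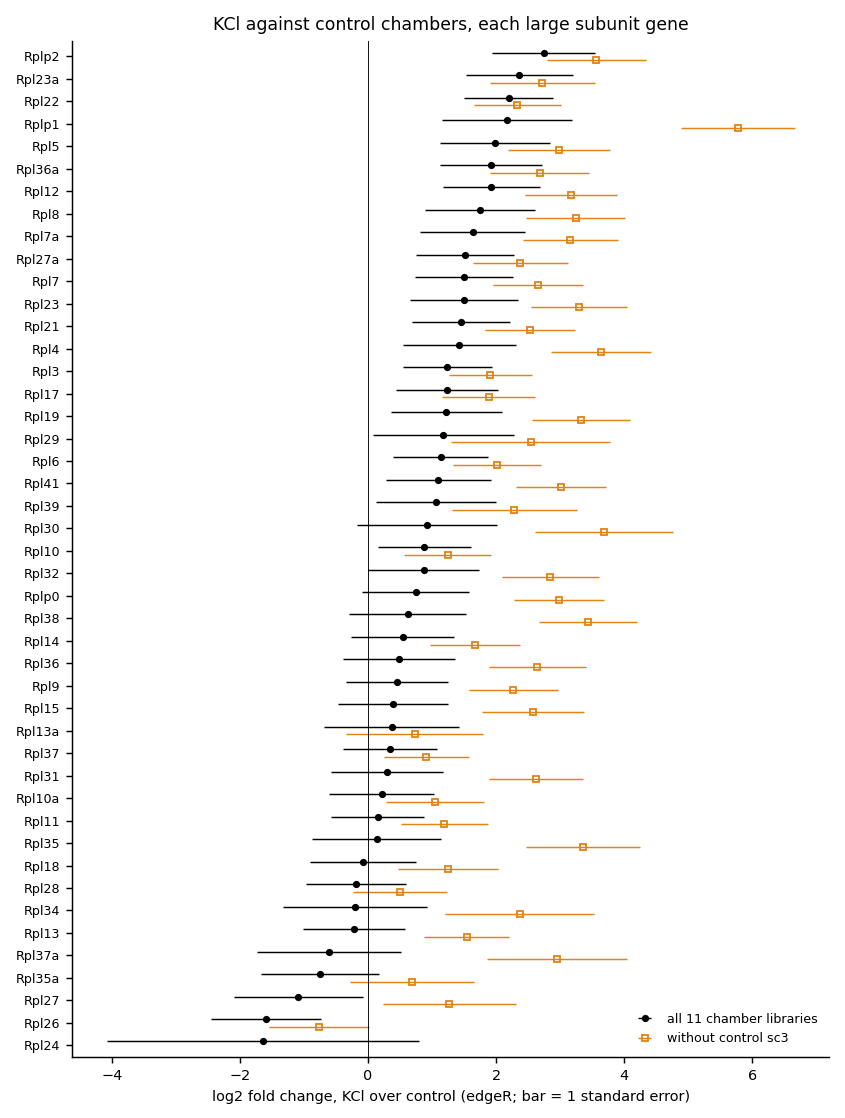
Log2 fold change of KCl over control chambers from edgeR for 45 of the 46 genes, with bars of 1 standard error, from all 11 chamber libraries (black) and without control sc3 (orange). With the title term in the fit the contrast is with the lettered controls, which without sc3 are Ctrl3 and Ctrl4. The median over all members is 0.87 with all libraries and 2.57 without sc3, and Rpl24, too low to be tested without sc3, has no orange point.

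The 4 stalk genes had edgeR log2 fold changes of 0.74 to 2.74 against the lettered controls. Against all 8 controls, log2 ratios of mean shares plus 1 CPM were 1.71 for Rplp1, 1.59 for Rplp2, 1.07 for Rplp0 and 0.95 for Rpl12. Rplp0 lay below Rpl12 in the fit and above it in these ratios. Rplp2 had 289, 629 and 347 CPM in KCL1, KCL1a and KCL4, against 37.1 at the lowest, 121.5 at the median and 261 at the highest in controls. Its log2 fold change was 2.74 (SE 0.80, edgeR adjusted p = 0.543). Rplp1 had 356, 579.7 and 303 CPM in KCl chambers, against 5.74, 146 and 216 in controls (log2 fold change 2.17, SE 1.02, edgeR adjusted p = 0.794). Both genes had every KCl library above every control. Rpl12 had 109.9, 119.6 and 113 CPM in KCl chambers, against 23.6, 54.9 and 120.9 in controls, so that 1 control, C2, reached past the KCl values (log2 fold change 1.92, SE 0.76, edgeR adjusted p = 0.733). Rplp0 had 150.2, 296.5 and 187.6 CPM in KCl chambers, against 33.7, 99.2 and 195.6 in controls, and its ranges overlapped (log2 fold change 0.74, SE 0.84).

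Of the 10 genes for proteins near the exit tunnel, 3 had every KCl library above every control: Rpl22, Rpl4 and Rpl23a, a docking place for factors at the tunnel mouth. The ranges of Rpl17, Rpl19, Rpl26, Rpl31, Rpl35, Rpl38 and Rpl39 overlapped. Rpl22 had 158, 230.3 and 172 CPM in KCl chambers, against 29.9, 82.75 and 145 in controls (log2 fold change 2.195, SE 0.70, edgeR adjusted p = 0.584). Rpl23a had 83.6, 113 and 66.4 CPM in KCl chambers, against 6.75, 25.1 and 42.4 in controls (log2 fold change 2.36, SE 0.84, edgeR adjusted p = 0.647). Rpl4 had 333, 582.5 and 349 CPM in KCl chambers, against 52.3, 154 and 312 in controls (log2 fold change 1.43, SE 0.89, edgeR adjusted p = 0.9045). The lowest KCl value of Rpl4 lay only just above its highest control, C11. Rpl26, another protein of the rim, lay the other way, with 23.9, 6.12 and 9.345 CPM in KCl chambers against 23.6, 49.0 and 98.35 in controls (log2 fold change -1.59, SE 0.86, edgeR adjusted p = 0.849). Only its value in KCL1 reached into the control range.

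**Figure D5:**
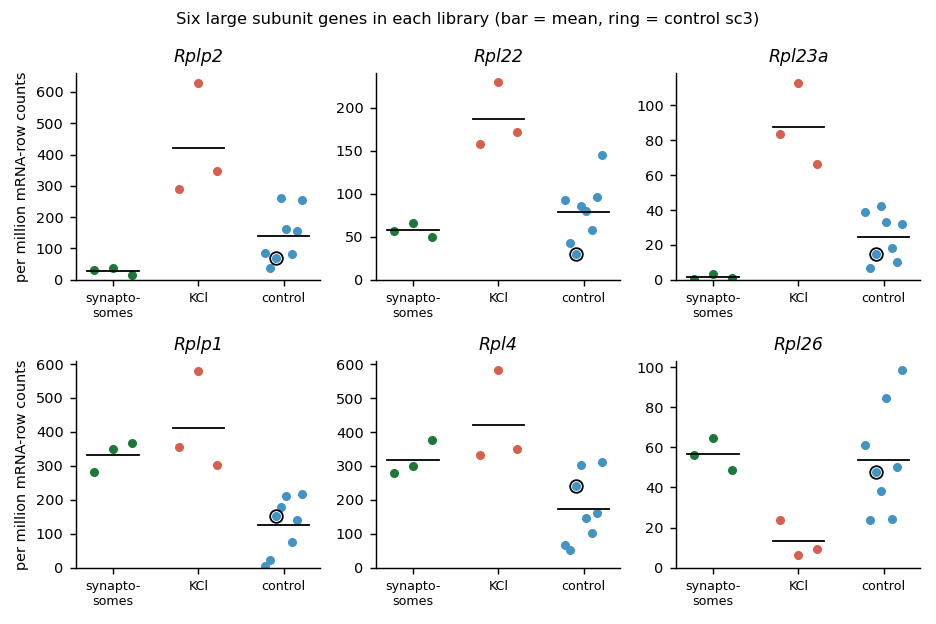
CPM over mRNA rows (y axis, linear from 0) of Rplp2, Rpl22, Rpl23a, Rplp1, Rpl4 and Rpl26 in each library, by group, with the mean as a bar and control sc3 ringed. KCl points lie above all controls in the first 5 (Rplp2 289 to 629 against at most 261) and mostly below them in Rpl26.

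Of the 5 genes Rpl3, Rpl8, Rpl10, Rpl10a and Rpl36a 1, Rpl8, and of 4 bridge genes 1, Rpl23, had every KCl library above every control. The ranges of Rpl3, Rpl10, Rpl10a and Rpl30 overlapped. Rpl8 had 187, 240.3 and 212 CPM in KCl chambers, against 8.44, 103 and 153 in controls, without overlap (log2 fold change 1.75, SE 0.86, edgeR adjusted p = 0.815). Rpl36a, near the exit site for transfer RNA, had 88.7, 144 and 49.25 CPM in KCl chambers, against 10.1, 30.95 and 61.1 in controls, with overlap in KCL4. Rpl5, which carries the 5S ribosomal RNA together with Rpl11, had 221.6, 206.4 and 153.5 CPM in KCl chambers, against 7.65, 82.4 and 201.6 in controls, and KCL4 lay inside the control range. Rpl23, which touches the small subunit, had 182.6, 100.1 and 123.6 CPM in KCl chambers, against 15.2, 59.15 and 97.2 in controls, just without overlap. Rpl41 had 269.5, 358.8 and 166.1 CPM in KCl chambers, against 32.05, 121.5 and 212.2 in controls, and overlapped.

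Of the remaining members with the smallest adjusted p, Rpl27a was the one whose groups were apart. It had 85.4, 100.1 and 80.15 CPM in KCl chambers, against 21.05, 38.2 and 74.5 in controls (log2 fold change 1.52, SE 0.76, edgeR adjusted p = 0.830). Rpl7 had 156.3, 231.4 and 161.8 CPM in KCl chambers, against 47.2, 76.05 and 168.9 in controls, and Rpl7a had 114.5, 202.5 and 174.5 CPM in KCl chambers, against 23.6, 66.6 and 134.6 in controls. Both overlapped. Rpl21 had 242.7, 150.8 and 255.8 CPM in KCl chambers, where KCL1a alone lay below the highest control of 169.7. KCL1a was the highest KCl library for 17 of the 20 genes named by rule.

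Lists around the members were read from the same fit. Of the 32 small subunit genes, 8 had every KCl library above every control and 0 were called (median log2 fold change 0.70; 18 called higher without sc3). Of 11 elongation factors and nascent chain partners, such as Eef1a1 and Eef2, 4 were above all controls (median 1.27; 6 called higher without sc3). Of 32 assembly factors of the large subunit 0 were above all controls (median -0.23; 2 called higher without sc3). Of 48 mitochondrial large subunit genes with a count, 0 were above and 2 below all controls (median -1.31; 1 called higher without sc3). All 7 close paralogs and fusion genes of the members, such as Rpl22l1, overlapped between groups (median -0.33). These medians stand beside -0.53 over all rows, which was -1.16 with library totals. Over all mRNA rows with a count, 0.598% were above and 0.884% below all controls, and 3.61% of rows tested were called higher without sc3. In synaptosomes the small subunit genes had a median log2 ratio of -1.79 to controls, with 13 of 32 below and 2 above all controls. The elongation list had -0.62, with 3 of 11 below and 1 above. Over all mRNA rows with a count the median was -1.80, with 16.4% below and 2.56% above all controls. Of rows with a mean of at least 10 CPM, 23.3% were below and 3.61% above.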

How the data were processed

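Total RNA libraries of 3 synaptosome, 3 KCl and 8 control samples were used. Per the study's methods and the submitters' processing notes, reads were aligned to mm10 with STAR 2.5.2b and counted per gene with featureCounts 1.5.1. The deposited counts are whole reads per gene, and the CPM columns the authors deposited equal the count over the table's total to within 4.07e-10. The treatment of reads matching several places is not given in the sources used here. The columns C1 and C11 each matched a pair of control labels and were used as control replicates with no number. A further 52 per-sample columns were not used here.

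Levels are counts over the sum of mRNA rows, not the deposited CPM, chosen since noncoding rows took most synaptosome counts. Symbols came from the gene table for 48349 of 48709 rows. KCl was tested in edgeR 4.0.16 under R 4.3.3 (filterByExpr, TMM, a term for lettered or bare-number titles, Benjamini-Hochberg over all rows). The fit was first run on simulated counts without a title effect, which checks the code and not its power in these data. DESeq2 1.42.0 and other scalings, filters and sample sets were alternatives. Synaptosomes were compared with chambers by levels without a test, since kits and preparations differ. Replicate pairs differed beyond sampling noise (chi-square per degree of freedom 6.22 to 714.8). Nothing says that chambers came from separate cultures, so p-values measure the spread between these samples. KCL1 and KCL1a share a title number and may not be independent.

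The members and lists were chosen with earlier results of these data known. Genes were named by rule: the markers, the stalk genes, the 5 highest members of each group, the 12 of smallest adjusted p (none was called), the 3 largest and 3 smallest synaptosome ratios and any member without counts in a group. Rpl9, Rpl15, Rpl19, Rpl23, Rpl26 and the members given only as overlapping fell outside it and were named after their values were seen. Of the genes named by rule, 1 is not reported here and was left out of the plots by gene; it stays in all counts and medians.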

Additional observations from a re-analysis of the deposited data

How the results depend on the processing

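The count of members called higher for KCl was 0 in edgeR, 2 with DESeq2, 1 with DESeq2 when a factor of unwanted variation was added and the title term dropped together (Rplp0, among 37 of 28232 rows called higher), and 16 without KCL4 and sc3. Leaving out 1 library at a time gave 0 to 23, with 23 only without sc3, and 0 to 0 without the term for lettered titles, as with all libraries and no such term. No alternative called a member lower. The median log2 fold change of the members was 0.43 (without Ctrl4) to 2.57 (without sc3) with 1 library left out (0.45 without Ctrl3), 0.81 to 1.43 in the same runs without the title term (1.09 with all libraries), and 2.59 without KCL4 and sc3. The members' median lay above that of all rows by 1.405 with all libraries and by 1.58, 1.91 and 1.69 with RLE, library totals and upper quartile scaling, under which the median of all rows was -0.75, -1.16 and -0.37. This gap was smaller without Ctrl4 (0.62), without Ctrl3 (0.95) and with bare-number controls only (1.14), and 2.99 without sc3. The fit without KCL4 and sc3, and the runs that left out 1 library without the title term, were chosen after seeing the data. With a replicate block by title number in place of the title term the median was 1.51 and 0 members were called. With KCL1 and KCL1a, which share a title number, summed into 1 library, the median was 0.98 and 0 members were called. Deviations of same-numbered KCl and control libraries from their group means had correlations of -0.234 to 0.0376 over 3 pairs. The pairs were KCL1 and KCL1a, each with C1, and KCL4 with Ctrl4, too few to tell whether the numbers pair samples. No pairing was put in the main fit.

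The mean summed share was 0.0182% of all rows in synaptosomes and 0.428% in KCl chambers, and 0.225% in synaptosomes without satellites, sensory receptors and the 10 highest mRNA rows. Over all rows the KCl and control ranges overlapped, with KCL4 (0.3729%) below sc3 (0.3789%). With 1 library left out the mean share of mRNA-row counts was 0.154 to 0.168% in synaptosomes, 0.516 to 0.641% in KCl chambers and 0.290 to 0.331% in controls. The median log2 ratio of synaptosomes over controls was -4.17 over all rows and -2.13 to -1.87 with 1 library left out. Depth limits the 13 members under 10 synaptosome counts.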
